A study of Mus musculus with 29 samples.

Results

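Transcript levels were compared between NMM cells that had received a pulse of interferon gamma (IFNγ) and then spent 24 h in medium, and NMM cells kept in medium throughout. NMM is an NRAS-mutant melanoma line from the mouse, and both groups are this line and carry that mutation. In the pulse group, 100 ng/ml IFNγ was given for 2, 6, 12 or 24 h, the cells were washed 5 times with PBS, and medium without cytokine followed for 24 h. In the group called medium alone, medium replaced IFNγ for the same 2, 6, 12 or 24 h and the same wash and 24 h of medium followed. The libraries were chosen by these labels, and they are 8 of the 29 in the series, 4 per group, 1 for each first duration. Of the other libraries, 8 served direct comparisons: 4 had medium first and IFNγ for the last 24 h (IFNγ present), and 4 had 10 ng/ml transforming growth factor beta (TGFβ) first and medium for the last 24 h (TGFβ pulse). The labels name no replicate at a given duration, so libraries of different duration serve as replicates within a group. A p-value rests on the spread between libraries within the groups of all 29, after a term for duration. That spread may be technical in part.

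IFNγ is a cytokine that T cells and natural killer cells release near tumour cells. It binds a receptor made of Ifngr1 and Ifngr2, whose kinases Jak1 and Jak2 signal to short elements in promoters such as that of the transcription factor Irf1. Irf1 in turn helps to raise chemokines, guanylate-binding GTPases, the antigen presentation machinery and the T cell inhibitory ligand PD-L1, while Socs1 blocks the receptor. The comparison asks how much of such a response is still present in RNA a day after the cytokine was removed.

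The 8 libraries held between 17179530 and 21075151 counts, and 14935 genes were tested in a model fitted to all 29 libraries. A call required an adjusted p under 0.05 (edgeR quasi-likelihood test, Benjamini-Hochberg adjustment over all tested genes). Levels are counts scaled to a common library size (CPM), differences are log2 fold changes of the pulse over the group named, and SE is their standard error. The 6 h medium library stood apart from the rest of its group. The SD over genes of its log2 difference from the rest of its group was 0.596, while each of the other medium libraries had 0.32 to 0.361 and the pulse libraries 0.338 to 0.375. Mitochondrially encoded transcripts took 1.24% of its counts, against 0.841% to 0.868% in the other medium libraries. Median levels of the mitosis and replication lists lay 1.05 and 0.96 log2 units under the other medium libraries there. Results are therefore also given without that library. Of 13 leukocyte markers, 2 were tested (Cd14 and Cd68) and Ptprc, Itgax, Csf1r and Lyz2 reached at most 3 counts in any of the 8 libraries, while the rest are not reported here. Of the melanocyte genes, Kit and Mc1r had 0 counts, Sox10 reached 2, Pmel 9 and Ednrb 3 counts. Gpnmb (2723 to 5771 counts), Pax3 (1072 to 1445 counts), Mitf (228 to 335 counts) and S100b (4 to 24 counts) were expressed, and the other melanocyte genes were not analysed here. In bulk RNA, fewer responding cells and less RNA per cell cannot be told apart.

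Genes that IFNγ induces most strongly had fold changes of both signs against medium alone after the pulse, with none called by edgeR. Of these 22 genes, 20 were lower than with IFNγ present. Of a list of 22 such genes, 0 were called against medium alone, where 0.382% of all tested genes were called higher and 0.408% lower, with 4 of the 22 at an unadjusted p below 0.05, as were 15.8% of all genes. DESeq2 called 1 of them higher, the apolipoprotein L gene Apol6 (1.76, adjusted p = 0.0417), at 0.0524 to 0.67 CPM in pulse cells and 0.0987 to 0.183 CPM in medium alone. Their log2 fold changes ran between -1.40 for Cxcl10 and 1.72 for Apol6 where medium alone had counts, with a median of 0.02, against 0.01 over all genes, and of -0.10 without the 6 h medium library. Against cells with IFNγ present, 20 of the 22 were lower and 0 higher, with a median of -3.51, where 20.8% of all tested genes were called lower and 20.8% higher. B2m, the MHC class I light chain, was among those that did not pass (-0.24, adjusted p = 0.477).

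Irf1, the transcription factor at the head of the cascade, had 47.6, 42.7, 35.5 and 31.8 CPM in pulse cells of 2, 6, 12 and 24 h, against 47.6, 20, 41.6 and 44.7 CPM in medium alone of the same durations. It had 510, 465, 532 and 513 CPM with IFNγ present. The pulse libraries overlapped those of medium alone (0.01, SE 0.26, adjusted p = 0.987), and every pulse library lay below every IFNγ-present library. After the pulse Irf1 was at 7.63% of its level with IFNγ present (-3.71, adjusted p = 1.03e-09). The Irf1 gene is on chromosome 11, 53770014 to 53778374 on GRCm38. RefSeq lists 2 promoters for it, and the 1 described here holds the IFNγ-activated element TTCNNNGAA. That promoter, at chr11:53769764-53770063 on the plus strand of GRCm38.p6, is shown with the element in capitals because the Irf1 transcript is the first step at which the withdrawal can be read.
Irf1: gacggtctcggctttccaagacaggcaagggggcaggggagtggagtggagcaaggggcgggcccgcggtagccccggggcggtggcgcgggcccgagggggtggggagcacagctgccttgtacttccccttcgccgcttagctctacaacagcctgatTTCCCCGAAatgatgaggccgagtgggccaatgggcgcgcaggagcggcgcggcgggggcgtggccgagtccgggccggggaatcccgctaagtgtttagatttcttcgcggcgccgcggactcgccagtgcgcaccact
The element, searched on both strands, stood in the promoters of 6 of 10 GBP and IRG GTPase genes with a RefSeq promoter, 5 of 15 IFNγ signalling genes, 2 of 20 MHC class I genes, 0 of 7 chemokines and 0 of 7 T cell inhibitory ligands, and of 9.55% of the 27025 genes with one.

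Gbp2, a guanylate-binding GTPase, had 230, 249, 114 and 89.6 CPM in pulse cells, against 212, 97.9, 221 and 233 CPM in medium alone and 2483 to 2809 CPM with IFNγ present. The 12 and 24 h pulse libraries lay below their medium libraries and the 6 h pulse library above its own, which is the medium library that stood apart. The fold change against medium alone was -0.45 (SE 0.60, adjusted p = 0.764) and -0.81 without the 6 h medium library (adjusted p = 0.572). Cd274, which encodes PD-L1, had 24.9, 22.4, 9.78 and 9.62 CPM in pulse cells, against 21.1, 10.8, 24.5 and 24.5 CPM in medium alone and 249 to 284 CPM with IFNγ present. Its pattern over the libraries resembled that of Gbp2, with a fold change of -0.49 (SE 0.42, adjusted p = 0.612). Cxcl10, a chemokine that attracts T cells, had 150, 116, 39.4 and 30.2 CPM in pulse cells, against 155, 37.1, 186 and 198 CPM in medium alone. The groups overlapped (-1.40, SE 0.66, adjusted p = 0.308), and with IFNγ present it stood at 994 to 1192 CPM. Its relative Cxcl9 was nearly silent in both groups, at 0.21 to 1.05 CPM in pulse cells and 0 to 0.345 CPM in medium alone, and had 114 to 156 CPM with IFNγ present. Ciita, the activator of MHC class II genes, had counts in 1 of the 4 pulse libraries (0.105 CPM at 2 h) and 0 counts in every medium library.

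**Figure D1:**
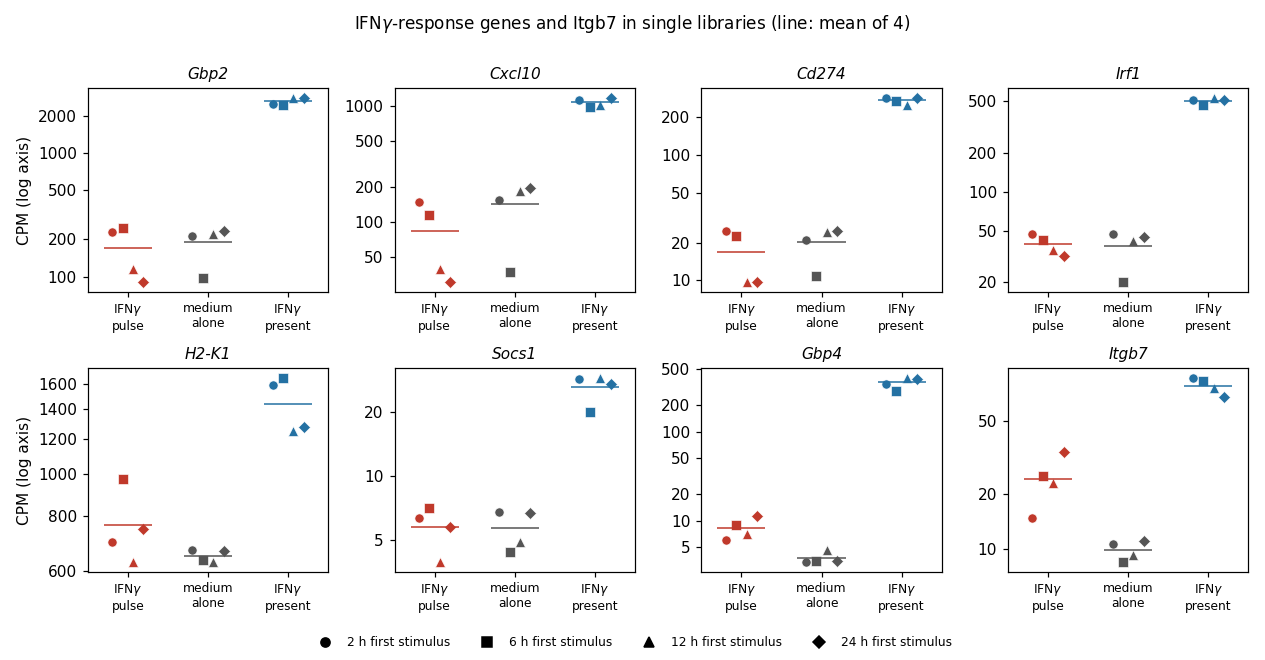
CPM on a log axis for 8 genes in the 4 IFNγ pulse libraries, the 4 libraries of medium alone and the 4 with IFNγ present; marker shapes give the first duration and lines the mean of 4. All 8 genes sit highest with IFNγ present, Irf1 after the pulse (31.8 to 47.6 CPM) overlaps medium alone (20 to 47.6 CPM), and Gbp4 and Itgb7 after the pulse lie above every medium library.

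H2-K1, an MHC class I heavy chain, had 698, 974, 629 and 750 CPM after the pulse, against 670, 637, 631 and 667 CPM in medium alone and 1250 to 1654 CPM with IFNγ present. The groups overlapped (0.18, SE 0.31, adjusted p = 0.816). Among 25 genes of MHC class I presentation, 0 were called against medium alone (0 at an unadjusted p below 0.05, 0 by DESeq2) and 20 were lower than with IFNγ present, a count of 15 by DESeq2 and of 10 with no term for duration. Over all tested genes, 20.8% were lower than with IFNγ present in the fit as reported. The list's median against medium alone was 0.01, and -0.15 without the 6 h medium library. Gbp4 was the only one of the 22 strongly induced genes whose pulse libraries all lay above all medium libraries, at 5.98, 8.83, 6.97 and 11.3 CPM against 3.38, 3.52, 4.69 and 3.54 CPM. Over all tested genes, 2.58% had their pulse libraries apart from and above medium alone in this way and 2.5% below it. The fold change of Gbp4 was 1.12 (SE 0.43) and did not pass (adjusted p = 0.204), and it stood at 2.32% of its level with IFNγ present, 284 to 405 CPM. Reads of the Gbp, H2 and Ifit families may be shared between near-identical copies, so values of single members are uncertain.

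Of 18 IFNγ signalling genes, 0 were called against medium alone (1 at an unadjusted p below 0.05, 0 by DESeq2), with the transcription factor Irf8 first by p (0.29, SE 0.12, adjusted p = 0.225). Socs1, the feedback inhibitor, had 6.29, 7.05, 3.9 and 5.75 CPM in pulse cells, against 6.76, 4.39, 4.88 and 6.7 CPM in medium alone. These overlap, and the fold change was 0.02 (SE 0.17, adjusted p = 0.96). Of 12 chemokine genes and 18 GBP and IRG GTPases, 0 were called in each list (1 at an unadjusted p below 0.05 in each, 0 by DESeq2), with medians of -0.08 and -0.22, and of -0.26 and -0.37 without the 6 h medium library. Against IFNγ present, 9 of the 12 chemokines and 18 of the 18 GTPases were lower, as were 20.8% of all tested genes. Of 11 T cell inhibitory ligands 0 were called by edgeR, 2 were at an unadjusted p below 0.05 and DESeq2 called 1 lower. The smallest adjusted p, 0.0642, was that of Cd276, which encodes B7-H3. Cd276 had 17.1, 17.2, 14.6 and 14.8 CPM in pulse cells, against 19.7, 24.7, 19.8 and 17.9 CPM in medium alone (-0.36, SE 0.09).

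Antiviral genes, which type I interferons and to a lesser extent IFNγ induce, had negative fold changes in 41 of 42 cases, with a median of -0.56 and of -0.83 without the 6 h medium library. No member was called by edgeR (1 at an unadjusted p below 0.05, the positive Ifi27) or by DESeq2. The median difference from the medium library of the same duration was 0.01 at 2 h, 0.34 at 6 h, -0.94 at 12 h and -0.98 at 24 h. Against the mean of the 2, 12 and 24 h medium libraries, which leaves out the one that stood apart, it was -0.06, -0.19, -0.91 and -0.92. The summed level of the list was 13198, 12492, 7432 and 7093 CPM at 2, 6, 12 and 24 h in IFNγ pulse cells. It was 9308, 7549, 1296 and 942 CPM at the same durations after the TGFβ pulse. Medium alone had 13240, 10364, 13949 and 14180 CPM. The cause of the lower levels at 12 and 24 h after either pulse was not tested. Rsad2, which encodes viperin, had 1106, 1334, 403 and 318 CPM in pulse cells, against 1054, 605, 1230 and 1180 CPM in medium alone. The 12 and 24 h pulse libraries were below every medium library and the other 2 were not (-0.97, SE 0.54, adjusted p = 0.401). Ifit3, a member of the IFIT family of RNA-binding inhibitors, had 764, 668, 263 and 190 CPM in pulse cells, against 768, 439, 859 and 882 CPM in medium alone. It was again the 12 and 24 h pulse libraries that lay below the whole medium group (-1.18, SE 0.67, adjusted p = 0.407).

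The dependence on pulse length was tested as the difference between the slopes of pulse and medium libraries on log2 duration. No gene was called by edgeR (0% of 14935 genes, 675 at an unadjusted p below 0.05, 0 by DESeq2; smallest adjusted p = 1). Of the 42 antiviral genes, 40 had a more negative slope in pulse cells, 2 of them at an unadjusted p below 0.05, against 7389 negative slopes over all genes, and the median slope difference was -0.33 log2 units for each doubling of duration. Leaving out the 2 h medium library gave 872 calls for this trend.

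A small set of genes outside the IFNγ-induced lists was called against medium alone, and its size depended on the model and on single libraries. Of all tested genes 0.79% were called, 118 in number, 57 higher and 61 lower. The model holds a term for duration, though pulse and medium libraries of equal duration hardly deviated together (correlations -0.04, 0.05, 0.02 and -0.03). With no such term 6 genes were called, and edgeR on only these 8 libraries called 0 (992 at an unadjusted p below 0.05, and DESeq2 on all libraries called 386). Fold changes were small, with a median absolute value of 0.45 on the log2 scale, 11 genes beyond 1 and 65 under 0.5. All 4 durations had the same sign in 110 of the 118, 55 higher and 55 lower, and the 4 pulse libraries lay apart from the 4 medium libraries in 85. Over all genes, 9.59% were higher and 7.89% lower at all 4 durations. Of the 118, 106 were protein-coding and 9 pseudogenes. The count depended on single libraries: it was 498, 65 and 23 without the 2, 6 and 12 h medium library (the 65 are 0.436% of the genes tested then, 0.195% higher and 0.241% lower), and 1, 9 and 43 without the 6, 12 and 24 h pulse library. The fitted sign was kept in each of 18 alternatives by the 116 genes tested in all of them, and by the remaining 2, Gm7237 and Gm19243, in the 16 and 17 that tested them. The alternatives reuse the libraries in which these genes were called, so a kept sign is not independent support. Of the 118, 33 were called in at least 9 alternatives.

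**Figure D2:**
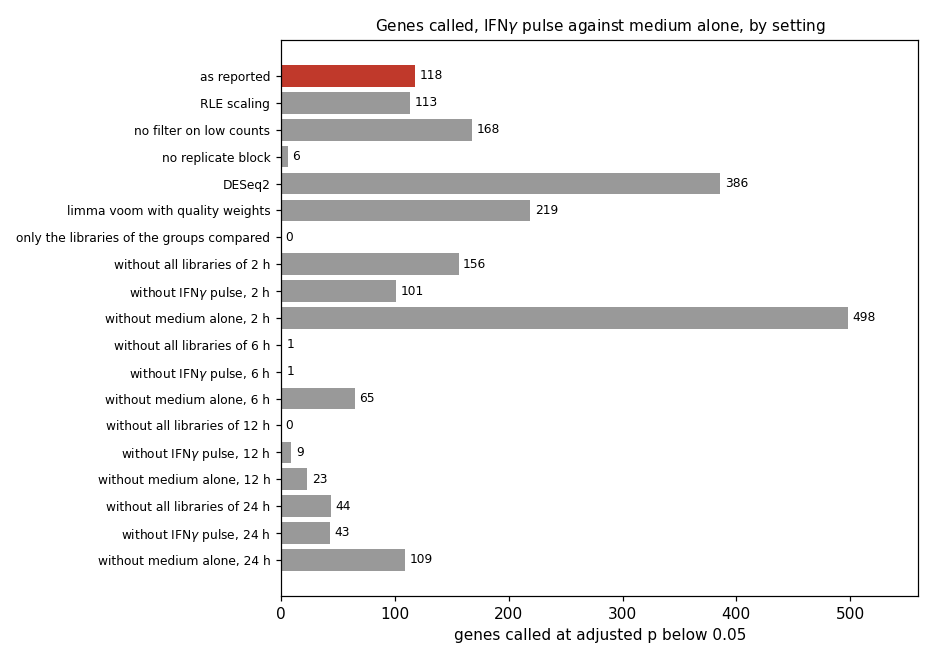
Number of genes called between the IFNγ pulse and medium alone (horizontal bars, starting at 0) as reported and under each alternative setting, with the group and first duration of any library left out. The count as reported is 118, and the alternatives run between 0 and 498.

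Atf5, a transcription factor of the integrated stress response, had the smallest p of all genes. It had 85, 63.9, 63.9 and 58.5 CPM in pulse cells, against 111, 157, 120 and 105 CPM in medium alone. Every pulse library was below every medium library, and the fold change was -0.88 (SE 0.11, adjusted p = 0.00062), or -0.72 with adjusted p = 0.000705 when the 6 h medium library was left out. The call held in 16 of 18 alternatives. Atf5 (chromosome 7, 44812256 to 44816658) was also lower than with IFNγ present, where it had 93.1 to 112 CPM (-0.60, adjusted p = 0.000138), and had 62 to 72.2 CPM after a TGFβ pulse (0.02, SE 0.11, adjusted p = 0.909).

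Atf5 is on a list of 35 genes of amino acid stress that the transcription factor ATF4 raises, which covers amino acid synthesis, transport and transfer RNA loading. The other 34 were not called against medium alone, and 34 of the 35 had negative fold changes, with a median of -0.25 and 17 at an unadjusted p below 0.05. DESeq2 called 5 of them lower, and 3 were lower without the 6 h medium library (median -0.35). Atf4 itself had 520, 418, 419 and 317 CPM in pulse cells, against 561, 496, 604 and 565 CPM in medium alone. The 2 h pulse library lay within the medium range and the others below it (-0.43, SE 0.11, adjusted p = 0.0596, and -0.50 with adjusted p = 0.0484 without the 6 h medium library). Psph, an enzyme of serine synthesis, had 64.4, 54.4, 51.5 and 35.7 CPM in pulse cells, against 75.3, 55.9, 76.9 and 77.2 CPM in medium alone (-0.50, SE 0.15, adjusted p = 0.095). Against IFNγ present 30 of the 35 were lower and 0 higher, with a median of -0.60, and against the TGFβ pulse 28 were lower and 0 higher, with a median of -0.59. Over all genes, 20.8% were lower and 20.8% higher against IFNγ present, and 10.2% lower and 11.2% higher against the TGFβ pulse. Neither comparison uses the medium libraries, and both share the 4 pulse libraries. The summed level of the list was 3929 to 5377 CPM after the pulse and 4834 to 6103 CPM in medium alone. It was 6864 to 7323 CPM with IFNγ present and 6460 to 7818 CPM after the TGFβ pulse. Both compared groups thus lay above every medium library, and these differences are not only a lower level after the pulse.

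Against the mean of the 2, 12 and 24 h medium libraries the median difference was -0.12, -0.41, -0.32 and -0.51 at 2, 6, 12 and 24 h. Asns and Trib3 were picked from this list after their values were seen. Asns, which encodes asparagine synthetase, had 161, 136, 135 and 83.5 CPM in pulse cells, against 172, 119, 181 and 184 CPM in medium alone, 209 to 217 CPM with IFNγ present and 198 to 285 CPM after the TGFβ pulse. The 24 h pulse library was the lowest of all 16. Trib3, a pseudokinase that inhibits AKT and ATF4, had 32.3, 24.5, 22.6 and 12.2 CPM in pulse cells, against 32.4, 16, 35.8 and 31.8 CPM in medium alone, 43.8 to 71.2 CPM with IFNγ present and 39.1 to 51.5 CPM after the TGFβ pulse. Neither passed against medium alone (adjusted p = 0.222 for Asns and 0.459 for Trib3), while both were lower against IFNγ present (-0.76 for Asns and -1.31 for Trib3) and against the TGFβ pulse (-0.88 and -1.05). Their RefSeq promoters, at chr6:7693160-7693459 for Asns and chr2:152344011-152344310 for Trib3, both on the minus strand of GRCm38.p6, are shown because both hold the core TGATGNAA of the element that ATF4 dimers bind. Capitals mark it, and in Trib3 it reads on the opposite strand.
Asns: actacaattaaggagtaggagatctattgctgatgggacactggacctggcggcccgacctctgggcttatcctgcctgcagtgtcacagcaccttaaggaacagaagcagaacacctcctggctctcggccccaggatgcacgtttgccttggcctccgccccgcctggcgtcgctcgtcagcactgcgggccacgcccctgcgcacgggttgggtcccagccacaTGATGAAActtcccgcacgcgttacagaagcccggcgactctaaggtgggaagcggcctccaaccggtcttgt
Trib3: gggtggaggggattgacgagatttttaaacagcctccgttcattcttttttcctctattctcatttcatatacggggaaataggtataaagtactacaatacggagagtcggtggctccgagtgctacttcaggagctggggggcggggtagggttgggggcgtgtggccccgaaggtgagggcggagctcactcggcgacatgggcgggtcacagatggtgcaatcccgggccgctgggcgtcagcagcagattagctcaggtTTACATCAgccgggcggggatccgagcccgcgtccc
The core, on either strand, stood in 12 of 28 promoters of the list (42.9%) and in those of 4.51% of the 27025 genes with a RefSeq promoter. The list is made of genes that ATF4 raises, so this share says nothing about the pulse.

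**Figure D3:**
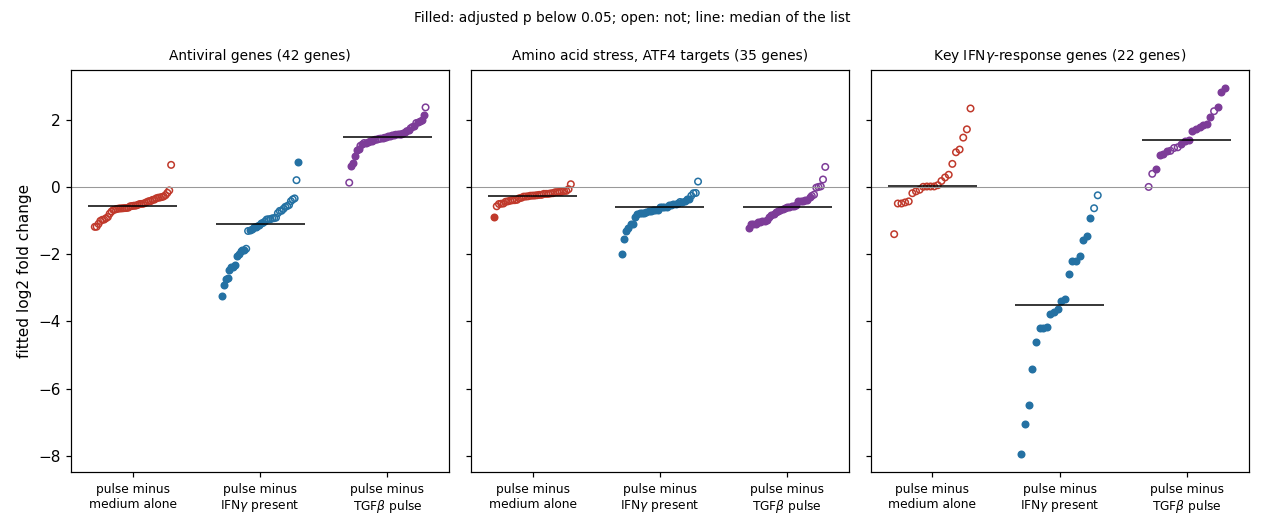
Fitted log2 fold changes (vertical axis) of the pulse against medium alone, against IFNγ present and against the TGFβ pulse for 3 gene lists, 1 point per gene sorted by value; filled points have an adjusted p below 0.05 and lines are medians. Amino acid stress genes lie mostly below 0 in all 3, antiviral genes have medians of -0.56, -1.09 and 1.51, and the 22 strongly IFNγ-induced genes have medians of 0.02, -3.51 and 1.40.

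Among the genes higher after the pulse were enzymes of glycolysis and genes of the hypoxia response. These genes are known targets of the hypoxia-inducible factors and are also driven by growth signalling in tumour cells grown in air. Of 20 glycolytic gene entries tested, which are 19 symbols with Aldoa entered under 2 identifiers, 8 were higher and 0 lower than in medium alone, with a median of 0.27. Of 26 hypoxia-inducible genes outside glycolysis, 7 were higher and 0 lower, with a median of 0.35. Over all tested genes, 0.382% were called higher and 0.408% lower. Fold changes were positive at all 4 durations in 13 of the 20 and in 17 of the 26, against 9.59% of all tested genes. Without the 6 h medium library 2 and 3 were higher and 0 lower, with medians of 0.19 and 0.36, where 0.195% of all genes were called higher. DESeq2 called 10 and 13 of them higher, and edgeR called 0 and 0 both with no term for duration and on only the 8 libraries of these groups.

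Bnip3, a receptor for mitophagy, had 88.6, 100, 136 and 143 CPM in pulse cells, against 66.3, 62.1, 50.3 and 71.4 CPM in medium alone. Every pulse library was above every medium library, with the 12 and 24 h pulse libraries highest (0.84, SE 0.15, adjusted p = 0.0172, and 0.93 with adjusted p = 0.0205 without the 6 h medium library). Bnip3 was also higher than with IFNγ present, where it had 60 to 124 CPM (0.47, adjusted p = 0.0135), and than after the TGFβ pulse, where it had 51.8 to 84.8 CPM (0.88, adjusted p = 0.000221). Mgarp, a mitochondrial protein of the hypoxia response, had 4.04, 5.27, 6.71 and 5.98 CPM in pulse cells, against 2.56, 2.08, 3.21 and 2.82 CPM in medium alone. The groups did not overlap (1.03, SE 0.20, adjusted p = 0.0197), and Mgarp had only 1.64 to 2.48 CPM with IFNγ present (1.36, adjusted p = 1.64e-05).

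Pgam1, a phosphoglycerate mutase, had 56.8, 53.3, 62.8 and 77.7 CPM in pulse cells, against 49.1, 36.7, 43.7 and 49.1 CPM in medium alone (0.48, SE 0.08, adjusted p = 0.0172). Pkm, the pyruvate kinase of tumour cells, had 2094, 2147, 2407 and 2495 CPM in pulse cells, against 2045, 1476, 1884 and 2023 CPM in medium alone (0.30, SE 0.06, adjusted p = 0.0197). In both genes the lowest pulse library lay just above the highest medium library. Ldha, which turns pyruvate to lactate, had 876, 915, 973 and 1101 CPM in pulse cells, against 820, 546, 716 and 851 CPM in medium alone. It was called with all libraries (0.41, SE 0.08, adjusted p = 0.022) and not without the 6 h medium library (0.33, adjusted p = 0.055). Pgam1, Pkm and Ldha did not pass against IFNγ present, at 0.11, 0.10 and 0.03, where their levels were 48 to 68.6 CPM, 1956 to 2315 CPM and 795 to 1075 CPM.

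The other glycolytic calls were Gpi1 (0.26), Pfkl (0.35), Pfkfb3 (0.87), Tpi1 (0.31) and Eno1 (0.38). Pfkfb3 makes the activator of phosphofructokinase and had 2.99, 3, 5.88 and 9.48 CPM in pulse cells, against 2.79, 1.85, 2.86 and 3.65 CPM in medium alone, with the 12 and 24 h pulse libraries highest. The summed level of the glycolytic list was 7206, 7250, 8147 and 8282 CPM at 2, 6, 12 and 24 h in pulse cells. Medium alone had 6911, 4858, 6371 and 7034 CPM. With IFNγ present it was 6800, 6652, 8267 and 7914 CPM, and after the TGFβ pulse 6372, 6016, 6949 and 6976 CPM. The cause of the higher sums at 12 and 24 h was not tested. Eno1 has a near-identical copy, Eno1b, and reads may be split between them. The other hypoxia calls were Fam162a (0.46), the carbonic anhydrase Car12 (0.43), the lactate exporter Slc16a3 (0.59), Anxa2 (0.32), the prolyl hydroxylase Egln3 (0.54) and Ndrg1 (0.64). Slc16a3 had 30.3, 30.6, 40 and 44.8 CPM in pulse cells, against 27, 18.7, 21.2 and 28.2 CPM in medium alone. Without the 6 h medium library, the members of these 2 lists that passed were Pgam1, Pkm, Bnip3, Car12 and Adm. Adm, the vasodilator peptide adrenomedullin, had 0.734, 0.389, 3.07 and 2.92 CPM in pulse cells, against 0.229, 0.347, 0.148 and 0.332 CPM in medium alone (2.60, adjusted p = 0.0713 with all libraries and 3.13, adjusted p = 0.0493 without the 6 h medium library). Vegfa, a classical hypoxia target named here after its values were seen, was not called, with 1028, 998, 978 and 933 CPM in pulse cells, against 1042, 1883, 1048 and 1001 CPM in medium alone.

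**Figure D4:**
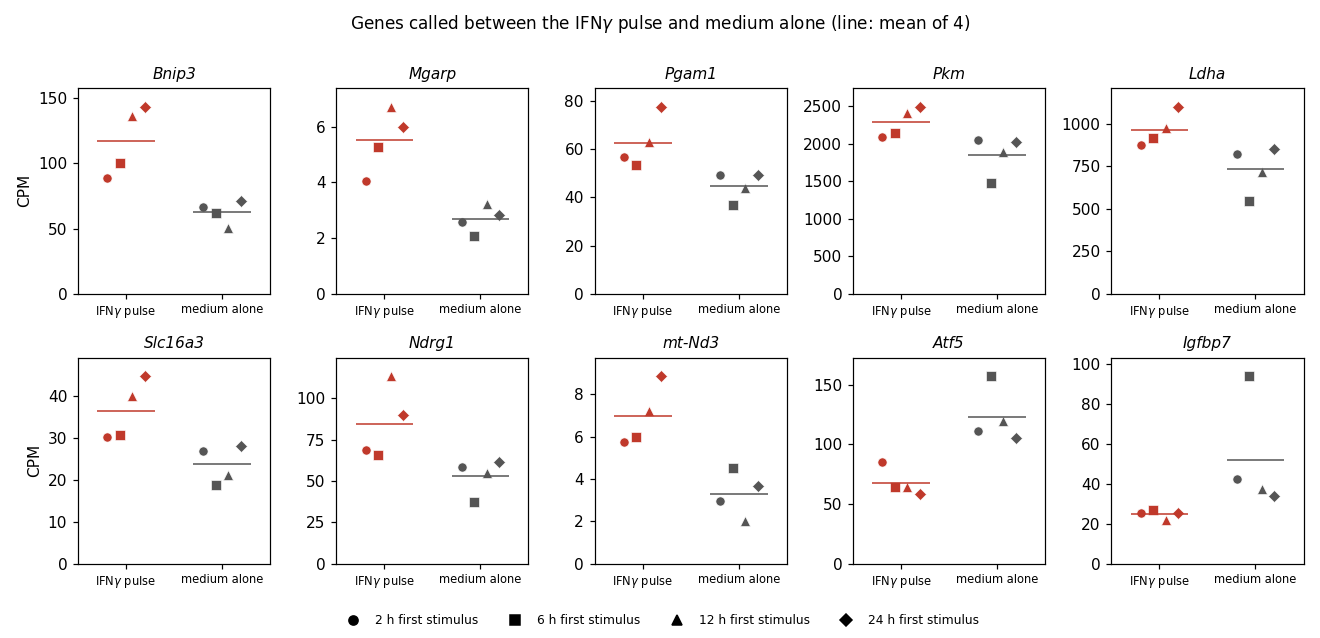
CPM from 0 for 10 genes called between the groups, in the 4 IFNγ pulse libraries and the 4 libraries of medium alone; marker shapes give the first duration and lines the mean of 4. Bnip3 spans 88.6 to 143 CPM after the pulse and 50.3 to 71.4 CPM in medium alone, Atf5 lies lower after the pulse, and in Igfbp7 the 6 h medium library stands at 93.7 CPM.

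The short core ACGTG, to which hypoxia-inducible factors bind and which the CACGTG element of MYC and related factors also contains, was sought on both strands of the RefSeq promoters. It stood in those of 11 of 19 glycolytic genes (57.9%) and 18 of 22 hypoxia genes (81.8%), against 29.5% of the 10069 tested genes with a promoter and 21.8% of all 27025. Both lists are of known targets, so these shares say nothing about the pulse. Of the members called higher, 9 of 14 with a promoter held the core (64.3%). Over all calls with a promoter it stood in 39.5% of those higher and 31.7% of those lower. The promoters of Bnip3 (chr7:138909457-138909756, minus strand), Ldha (chr7:46845554-46845853, plus strand, 1 of 2 listed) and Pgam1 (chr19:41911621-41911920, plus strand) on GRCm38.p6 are shown as examples of called genes described above, with each match in capitals.
Bnip3: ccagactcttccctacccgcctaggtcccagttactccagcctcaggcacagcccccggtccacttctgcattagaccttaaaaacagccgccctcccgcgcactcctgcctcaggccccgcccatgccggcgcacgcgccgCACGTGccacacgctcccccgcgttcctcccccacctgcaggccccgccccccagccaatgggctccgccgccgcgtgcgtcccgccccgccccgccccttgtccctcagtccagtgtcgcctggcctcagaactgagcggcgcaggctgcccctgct
Ldha: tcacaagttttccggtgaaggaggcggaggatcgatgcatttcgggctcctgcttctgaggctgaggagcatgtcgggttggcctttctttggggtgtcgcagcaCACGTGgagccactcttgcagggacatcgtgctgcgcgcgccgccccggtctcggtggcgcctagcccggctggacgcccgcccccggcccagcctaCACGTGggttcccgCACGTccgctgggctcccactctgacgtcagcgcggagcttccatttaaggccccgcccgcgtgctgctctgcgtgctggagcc
Pgam1: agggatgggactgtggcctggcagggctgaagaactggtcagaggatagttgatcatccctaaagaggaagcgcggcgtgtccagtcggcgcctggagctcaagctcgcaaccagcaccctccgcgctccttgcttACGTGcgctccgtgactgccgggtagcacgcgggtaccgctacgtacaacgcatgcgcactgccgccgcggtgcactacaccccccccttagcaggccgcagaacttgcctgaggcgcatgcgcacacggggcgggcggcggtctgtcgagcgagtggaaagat
In Bnip3 the core lies within CACGTG, which reads the same on both strands, and Ldha holds that element at 2 places and the core on the opposite strand at 1 more. A match in these windows is a description of the sequence and not evidence of binding.

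**Figure D5:**
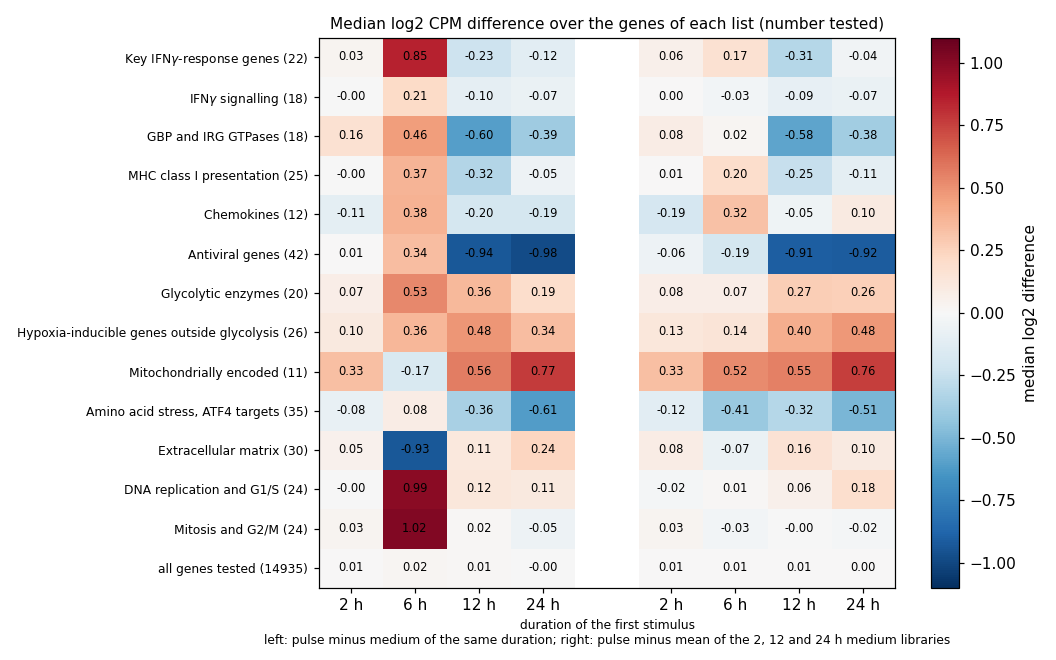
Median log2 CPM difference over the genes of each list, by first duration, of each pulse library from the medium library of the same duration (left) and from the mean of the 2, 12 and 24 h medium libraries (right); red is higher after the pulse, blue lower, and list sizes stand in parentheses. The 6 h column changes between the panels (mitosis genes 1.02 left and -0.03 right), while antiviral genes at 24 h have -0.98 left and -0.92 right.

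Itgb7, an integrin subunit of lymphocyte homing and the only call among 15 integrins, had 14.8, 24.9, 22.8 and 33.9 CPM in pulse cells, against 10.7, 8.44, 9.27 and 11.1 CPM in medium alone and 86.1, 82.9, 75.1 and 67.4 CPM with IFNγ present. The 3 groups did not overlap, and the pulse level was 31.1% of that with IFNγ present (1.29 over medium alone, SE 0.29, adjusted p = 0.0389; -1.68 against IFNγ present, adjusted p = 2.9e-05). It was 2.87 to 5.27 CPM after the TGFβ pulse. Without the 6 h medium library the call against medium alone was lost (1.15, adjusted p = 0.0852). Lgals7, which encodes galectin-7, had 1.73, 5, 3.8 and 3.26 CPM in pulse cells, against 1.23, 0.751, 0.888 and 1.38 CPM in medium alone and 5.93 to 7.17 CPM with IFNγ present (1.64, SE 0.37, adjusted p = 0.0397, and 1.38 with adjusted p = 0.101 without the 6 h medium library). Vcan, the matrix proteoglycan versican, had 112, 175, 109 and 168 CPM in pulse cells, against 89.5, 86.1, 93.9 and 90.8 CPM in medium alone and 194 to 249 CPM with IFNγ present (0.62, SE 0.13, adjusted p = 0.0272, and 0.55 with adjusted p = 0.0711 without the 6 h medium library). Each of these 3 genes stood between medium alone and IFNγ present.

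Of 30 extracellular matrix genes, Vcan was higher and Serpinf1, Bgn and Sparc were lower, and without the 6 h medium library Lox and Col4a2 were higher and Serpinf1 lower. Serpinf1, the antiangiogenic serpin PEDF, had 99, 76.6, 66.8 and 61.8 CPM in pulse cells, against 109, 258, 106 and 99.4 CPM in medium alone. The groups were apart by a narrow margin, and the 6 h medium library was the highest (-0.86, SE 0.16, adjusted p = 0.0172, and -0.54 with adjusted p = 0.015 without it). Igfbp7, a secreted IGF-binding protein, had 25.4, 26.8, 21.9 and 25.3 CPM in pulse cells, against 42, 93.7, 37.4 and 33.9 CPM in medium alone (-0.99, SE 0.18, adjusted p = 0.0174), and the fold change was -0.64 without the 6 h medium library (adjusted p = 0.0373). With IFNγ present it had 10.6 to 22.1 CPM, lower than after the pulse (0.70, adjusted p = 0.00537). Mmp3, the metalloproteinase stromelysin-1, had 1097, 763, 807 and 775 CPM in pulse cells, against 1204, 1359, 1193 and 1224 CPM in medium alone and 616 to 718 CPM with IFNγ present (-0.55, SE 0.10, adjusted p = 0.0172, and -0.49 with adjusted p = 0.0373 without the 6 h medium library). Penk, the enkephalin precursor, had 63.8, 37.6, 42.9 and 31.3 CPM in pulse cells, against 67.7, 143, 67.5 and 64.6 CPM in medium alone and 11.6 to 17.3 CPM with IFNγ present (-0.95, SE 0.18, adjusted p = 0.0197). Its 6 h medium library was the highest. Over 18 alternatives the fold change of Penk ran from -1.24 to -0.588, and it was called in 10. Mmp3 and Penk thus also had pulse levels between medium alone and IFNγ present, on the lower side. So did Igfbp7, except that its 12 h pulse library (21.9 CPM) lay within the IFNγ-present range.

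Of 24 TGFβ pathway genes and targets, Tgfbi and Ccn2 were higher and 0 lower, and Tgfbi alone passed without the 6 h medium library. Tgfbi, a matrix protein that TGFβ induces, had 28.1, 63.2, 35.4 and 32.1 CPM in pulse cells, against 20.6, 14.6, 19 and 24.2 CPM in medium alone (0.94, SE 0.19, adjusted p = 0.022, and 0.71 with adjusted p = 0.0447 without the 6 h medium library). It had 29.2 to 54.2 CPM with IFNγ present and 27.7 to 39 CPM after the TGFβ pulse, which overlap the pulse libraries. Pdgfra, a growth factor receptor counted here among fibroblast markers, had 10.2, 16.7, 10.8 and 12.6 CPM in pulse cells, against 6.72, 11, 6.96 and 8.58 CPM in medium alone (0.60, SE 0.13, adjusted p = 0.0382, and 0.67 with adjusted p = 0.0412 when the 6 h medium library was left out). Of the other markers of that list, Pdgfrb, Cdh5 and Plvap were tested and not called, Kdr had 0 counts, and Acta2, Pecam1 and Tek reached at most 3 counts in any of the 8 libraries.

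Mitochondrially encoded genes had positive fold changes in 10 of 11 cases, with a median of 0.30 and of 0.54 without the 6 h medium library, and mt-Nd3 was the single call. mt-Nd3, a subunit of respiratory complex I, had 5.77, 5.99, 7.23 and 8.86 CPM in pulse cells, against 2.97, 4.51, 2.02 and 3.65 CPM in medium alone and 1.51 to 2.18 CPM with IFNγ present (1.06, SE 0.22, adjusted p = 0.0272, and 1.36 with adjusted p = 0.00867 without the 6 h medium library). The share of all counts in mitochondrially encoded genes was 1.03%, 1.15%, 1.14% and 1.31% in pulse cells, against 0.862%, 1.24%, 0.841% and 0.868% in medium alone. The 6 h medium library reached the pulse range and the other 3 lay below it. Against IFNγ present, 9 of the 11 were higher and 0 lower, where 20.8% of all tested genes were called in each direction. The part of RNA quality in these values was not tested.

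The medians of the cell cycle lists moved close to 0 when the 6 h medium library was left out. Of 24 replication genes, 22 had positive fold changes and 0 were called by edgeR (11 at an unadjusted p below 0.05, 2 called higher by DESeq2), with a median of 0.23 and of 0.06 without that library. Of 24 mitosis genes, 24 had positive fold changes and 0 were called by edgeR (5 at an unadjusted p below 0.05, 0 by DESeq2), with a median of 0.20 and of 0.01 without it. Mcm3, a subunit of the replicative helicase, had 129, 138, 151 and 161 CPM in pulse cells, against 134, 63.3, 125 and 125 CPM in medium alone. The single low value was the 6 h medium library (0.40, SE 0.12, adjusted p = 0.0979).

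Against IFNγ present, 6209 genes were called, which is 41.6% of those tested, 3105 higher and 3104 lower. The lowest fold changes belonged to genes that were nearly silent without the cytokine. Batf2, a transcription factor, had 0.105 to 0.833 CPM after the pulse and 50.8 to 76.8 CPM with IFNγ present, and Apol6 had 0.0524 to 0.67 CPM after the pulse and 31.1 to 45.2 CPM with IFNγ present. Ido1, which degrades tryptophan, had 0 counts in every pulse library and 1.34 to 1.98 CPM with IFNγ present. The highest fold changes were those of low genes, such as Aldh1l1, a folate enzyme, with 0.262 to 2.3 CPM after the pulse and 0 to 0.056 CPM with IFNγ present.

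Against the TGFβ pulse, 3194 genes were called, which is 21.4% of those tested, 1674 higher and 1520 lower. The count was 2053 without the 24 h TGFβ library and 1604 with no term for duration. MHC class I genes were higher in 25 of 25 cases, GTPases in 15 of 18 and antiviral genes in 27 of 42, with 0 lower in any of these lists. With no term for duration these counts were 16, 9 and 0. Gbp2 had 3.33 to 146 CPM after the TGFβ pulse, with the lowest values at 12 and 24 h, and H2-K1 had 426, 406, 109 and 92.9 CPM. The 12 and 24 h TGFβ libraries thus lay far below both medium alone and the IFNγ pulse for these genes. Lamb3, a laminin chain, was among the lowest, at 0 to 0.157 CPM after the IFNγ pulse and 3.69 to 8.96 CPM after the TGFβ pulse.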

How the data were processed

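Messenger RNA of the NMM line was sequenced as stranded poly(A) libraries in 29 samples of 8 groups. The authors deposited raw counts per gene as 1 table. Reads were aligned with HISAT to GRCm38, per the submitters' processing notes. The HISAT version, counting tool, annotation and strand setting were not given in the sources used here. Of the columns of per-sample values, 0 were left unused.

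From the counts, edgeR 4.0.16 (R 4.3.3) fitted a quasi-likelihood model to all 29 libraries with group and first duration as factors, TMM scaling and filterByExpr with a minimum count of 10, which kept 14935 of 28229 genes. P-values were adjusted over these genes by the Benjamini-Hochberg method. The SE of a log2 fold change is its size divided by the square root of F. CPM use TMM-scaled library sizes, and log2 CPM a prior count of 2. The design assumed counts, which the table held. On simulated data with 14935 genes, 79 of 100 genes changed by 0.5 on the log2 scale and 96 of 100 changed by 1 were called between pulse and medium alone, with 11 false calls. In the simulation, pulse and medium libraries of equal duration shared a fitted mean for each gene, and only better expressed genes were changed. The real libraries of these groups hardly deviated together by duration, and the 6 h medium library stood apart. These rates were therefore not shown to hold for the real comparison. Alternatives used limma 3.58.1 and DESeq2 1.42.0, RLE scaling, no filter, no term for duration, only the groups compared, and each library left out.

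The 8 libraries held 17179530 to 21075151 counts. Libraries of equal duration in the IFNγ and TGFβ pulse groups deviated together from their group means, with correlations of 0.153, 0.305, 0.255 and 0.258 at 2, 6, 12 and 24 h. Between pulse and medium alone these were -0.04, 0.05, 0.02 and -0.03. The factor for duration was set by the labelled durations and covered all groups, medium alone included. The labels give no pairing of libraries beyond the shared duration.

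The comparison, the gene lists and the rule for naming genes were chosen with earlier results of these data known. Named genes are the 12 highest and 12 lowest fold changes among calls with 1 sign at all durations, a list of strongly IFNγ-induced genes, in each list described the calls and up to 5 genes with the smallest p, and for the direct comparisons up to 5 genes per direction. Not all of these are printed, and some genes are not reported here. Promoters are from RefSeq on GRCm38.p6 and run from 250 bases before to 50 bases after a gene's start. Gene coordinates are those of the deposited table.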

Additional observations from a re-analysis of the deposited data

Results flagged for a closer look

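In groups of 4 libraries, a library was singled out when its gap to the nearest other, divided by the group's whole range, passed Dixon's 95% critical value. Of 89 groups tested, 14 passed. The 1 in 20 of chance holds for independent groups and is no guide here. These genes were chosen partly by their values in the same libraries, and the 4 libraries of a group differ in duration. The 6 h medium library was the one singled out in 8 of the 14. It was low for Gbp2 (97.9 CPM, the others 212 to 233 CPM), Psmb10 (19.6 CPM, the others 28.2 to 28.8 CPM), Irf8 (13.4 CPM, the others 26.3 to 27.7 CPM) and Tap1 (90.5 CPM, the others 137 to 146 CPM). It was high for Penk (143 CPM, the others 64.6 to 67.7 CPM), Igfbp7 (93.7 CPM, the others 33.9 to 42 CPM), Rflnb (174 CPM, the others 55 to 60.1 CPM) and the pseudogene Gm7237 (3.99 CPM, the others 0.345 to 0.96 CPM).

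In the pulse group, Acod1, which makes itaconate, stood out at 6 h with 10.4 CPM, the others at 3.7 to 3.88 CPM. Col5a3, a collagen chain, was low at 2 h with 4.25 CPM, the others at 6.27 to 6.42 CPM. Gm7065 was high at 2 h with 4.46 CPM, the others at 3.5 to 3.64 CPM. Ciita had 0.105 CPM at 2 h and 0 in the others. The transcript 2310010J17Rik was low at 24 h with 0.67 CPM, the others at 0.944 to 0.996 CPM. In medium alone, Gbp4 was high at 12 h with 4.69 CPM, the others at 3.38 to 3.54 CPM.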

How the results depend on the processing

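The count of 118 genes called between the IFNγ pulse and medium alone was 113 with RLE scaling (111 shared) and 168 with no filter on low counts (99 shared). DESeq2 called 386 (115 shared) and limma voom with quality weights 219 (99 shared), and a fit on only the libraries of the 2 groups called 0 by edgeR (992 at an unadjusted p below 0.05). In the voom fit the 6 h medium library had a weight of 0.147, the others of both groups 0.769 to 1.67. Leaving out 1 library, or all libraries of 1 duration, gave counts between 0 and 498; the 0 came without the 12 h libraries (1815 at an unadjusted p below 0.05) and the 1 without the 6 h libraries. Against IFNγ present, leaving out libraries gave 4445 to 5982 calls, and every other alternative kept the count within 1.5 times of 6209. Against the TGFβ pulse they gave 1316 to 3202 calls, with 1316 without the 12 h libraries, 1461 without the 24 h libraries and 2053 without the 24 h TGFβ library. The trend with pulse length had 0 calls by edgeR in each alternative but one, and leaving out libraries gave 0 to 872. The cause of these differences was not tested. Over the alternatives, the 43 genes followed singly that were called between pulse and medium alone were called in 353 of 771 values and not called in 418. No value of a called gene changed sign, which the reuse of the same libraries makes likely in any case.

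Duration entered as a replicate block. Without the block, 6 genes were called between pulse and medium alone (1 higher and 5 lower, 1405 at an unadjusted p below 0.05), 4826 against IFNγ present and 1604 against the TGFβ pulse. Libraries of the same duration in pulse and medium alone had correlated deviations of -0.04, 0.05, 0.02 and -0.03 at 2, 6, 12 and 24 h, so they share only a number. Against IFNγ present these were 0.04, 0.21, 0.18 and 0.10.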

Other observations

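A few called genes on none of the lists are named here after their values were seen. Pgm1, which links glycogen to glycolysis, had 60.8, 74.7, 78.6 and 73.7 CPM in pulse cells of 2, 6, 12 and 24 h, against 53.3, 43, 46.5 and 51.4 CPM in medium alone (0.55, SE 0.09, adjusted p = 0.0145 by edgeR, and 0.51 with adjusted p = 0.0373 without the 6 h medium library). Gys1, the glycogen synthase of muscle and most other tissues, had 77.6, 82.5, 96.3 and 97.5 CPM in pulse cells, against 72.4, 60, 68.7 and 82.4 CPM in medium alone (0.32, SE 0.06, adjusted p = 0.0238). Amdhd2, an enzyme of amino sugar metabolism, had 21.5, 23.3, 23.7 and 23.8 CPM in pulse cells, against 18, 13.6, 15.8 and 15.9 CPM in medium alone (0.54, SE 0.10, adjusted p = 0.0172). Grk2, a kinase that desensitises G protein-coupled receptors, had the narrowest spread of these, with 80, 76.7, 82.6 and 78.8 CPM in pulse cells, against 100, 93.4, 98 and 88 CPM in medium alone and 101 to 108 CPM with IFNγ present (-0.26, SE 0.04, adjusted p = 0.0145).

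Of 23 genes of cholesterol and fatty acid synthesis, 0 were called by edgeR (6 at an unadjusted p below 0.05, 1 called higher by DESeq2). Their median difference from the medium library of the same duration was -0.01 at 2 h, -0.05 at 6 h, 0.15 at 12 h and 0.32 at 24 h, and 22 of the 23 slopes on log2 duration were more positive in pulse cells, 3 of them at an unadjusted p below 0.05.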
